A study of Mus musculus with 208 samples.

Results

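The mitochondrial respiratory chain is built from subunits of 2 genomes, and the genes described here are the nuclear ones, measured as mRNA in the striatum of Huntington disease knock-in mice. They were taken by name. Symbols beginning with Ndufa, Ndufb, Ndufc, Ndufs, Ndufv, Uqcr, Cox4 to Cox8 or Atp5 counted, as did Sdha to Sdhd. Assembly factors and symbols marked as pseudogenes (-ps) were left out. The mean had to be at least 1 CPM (counts scaled to the library's total). Of 39179 genes listed, 89 matched by name and 81 of these reached the minimum, against 14533 of all genes. The 81 were 37 subunits of complex I, 4 of complex II, 8 of complex III, 16 of complex IV and 16 of complex V. Ndufa4 and Ndufa4l2, once counted as complex I, were placed in complex IV, where Ndufa4 is now known to belong. No measured difference between mice entered the choice.

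Complex I takes electrons from NADH and complex II from succinate, complex III passes them through cytochrome c to complex IV, which reduces oxygen, and complex V, the ATP synthase, makes ATP from the proton gradient that complexes I, III and IV build. All subunits of complex II are encoded in the nucleus, whereas the other complexes join nuclear subunits to a few encoded by mitochondrial DNA. Medium spiny neurons, the projection neurons of the striatum that are lost early in Huntington disease, have a high energy demand, and poisons of complex II damage the striatum selectively.

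Mice were C57BL/6 heterozygotes with 1 knock-in Htt allele, named by CAG repeat length as Q20, Q80, Q92, Q111, Q140 and Q175, and wild types, in 26 groups of 8 libraries. Knock-in groups were taken at 2, 6 and 10 months; wild types were housed with Q20 at 2 and 10 months, and at 6 months 8 wild types shared cages with each of the 6 lines. Groups held 4 females and 4 males, except Q80 at 2 months with 3 and 5 and Q20 at 10 months with 5 and 3. Every line was compared with Q20, the knock-in with a short repeat, so the line comparisons share their reference libraries. The labels do not say whether mice of an age were collected together, so age and cohort cannot be told apart.

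Total counts were 29.1 to 49.6 M per library, with a median of 35.7 M. Htt itself, whose allele the lines carry, was lower in the longest-repeat lines: its change from Q20 was a log2 of -0.41 in Q175 and -0.24 in Q140 at 6 months. Summed medium spiny neuron markers (12 genes) lay between 10680 and 12660 CPM in Q20 at 6 months and between 5753 and 6639 CPM in Q175, and 11 of the 12 fell. In bulk tissue, fewer cells of a type and less RNA per cell cannot be told apart. The male Q80 library M3 of 2 months held 0 counts of Y-linked genes, against its label. A gene is called here when edgeR's quasi-likelihood test gave a Benjamini-Hochberg adjusted p under 0.05 over all genes of that age, and changes are log2 with their standard error (SE).

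Per length, the nuclear subunits of the striatum ranged over 2 orders of magnitude of FPKM (fragments scaled to transcript length and library size), and the median member of complexes III, IV and V stood above that of complexes I and II. Over the 96 libraries of 6 months the median member was at 71.6 FPKM in complex I, 64.1 in complex II, 101.9 in complex III, 115.4 in complex IV and 131.4 in complex V. The highest level was that of Atp5b, the catalytic beta subunit of the ATP synthase, with 574.5 ± 27.95 FPKM (SD, n = 96). Cox4i1, a core-bound nuclear subunit of cytochrome oxidase, followed with 423 ± 17.3 FPKM. Highest in their complexes were also Uqcrh, the hinge protein, with 196.5 ± 9.39 FPKM, Ndufb9 with 176 ± 8.26 FPKM, and Sdha, the flavoprotein of complex II, with 130 ± 4.396 FPKM. The lowest of each complex were Ndufb4 at 17.6 ± 1.496 FPKM, Sdhc at 43.3 ± 2.70 FPKM, Uqcrfs1 at 51.7 ± 2.72 FPKM, Ndufa4l2 at 2.81 ± 0.346 FPKM and Atp5s at 6.65 ± 0.553 FPKM. Ndufb4 has a near-identical copy, Ndufb4c, so the split of reads between them is uncertain. Ndufb4c had no protein-coding transcript length in GENCODE M21, so the lengths used below cover 80 members.

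Several subunits exist as a common and a tissue-specific form, and the common form made up nearly all of the mRNA in these samples. Cox4i1 stood at 423 FPKM beside 3.01 FPKM for Cox4i2, the form known from lung and from brain pericytes. Cox6a1 was at 391 FPKM and Cox6a2, the heart and muscle form, at 6.48 FPKM. Cox6b1 was at 244 FPKM and the testis form Cox6b2 at 3.81 FPKM, while Ndufa4 was at 265.5 FPKM beside 2.81 FPKM for Ndufa4l2. Cox7a2 and the related gene Cox7a2l, which is not a tissue-specific form of it, were at similar levels, 103 and 111 FPKM. The genes for the c subunit of the ATP synthase rotor encode the same mature protein, and Atp5g3 (259 FPKM) stood above Atp5g1 (116 FPKM). Atp5g2 was listed at 0 in the counts and in the FPKM. Whether its reads went unassigned was not tested, so its level is not known from these data. The 8 genes below the minimum included the muscle forms Cox8b (0.295 CPM) and Cox7a1 (0.636 CPM), and the members nearest above it were Cox6b2 (1.90 CPM), Cox4i2 (2.21 CPM) and Ndufa4l2 (2.38 CPM).

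The promoters of 3 of the members called most often in the line comparisons are printed here, from RefSeq (GRCm38.p6). Each runs from 250 bases before to 50 after the start of the gene. Capitals mark matches to the core motifs of factors known to act on respiratory genes. They are Atp5g1 at chr11:96075582-96075881, Ndufs3 at chr2:90904672-90904971 and Ndufa8 at chr2:36049289-36049588, all on the minus strand and written 5′ to 3′ along the gene.
Atp5g1: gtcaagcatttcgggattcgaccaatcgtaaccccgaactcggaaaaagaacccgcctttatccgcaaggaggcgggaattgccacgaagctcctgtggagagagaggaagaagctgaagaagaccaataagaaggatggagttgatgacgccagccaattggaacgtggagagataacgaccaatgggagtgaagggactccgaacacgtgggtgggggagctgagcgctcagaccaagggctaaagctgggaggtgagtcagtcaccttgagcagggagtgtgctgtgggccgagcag
Ndufs3: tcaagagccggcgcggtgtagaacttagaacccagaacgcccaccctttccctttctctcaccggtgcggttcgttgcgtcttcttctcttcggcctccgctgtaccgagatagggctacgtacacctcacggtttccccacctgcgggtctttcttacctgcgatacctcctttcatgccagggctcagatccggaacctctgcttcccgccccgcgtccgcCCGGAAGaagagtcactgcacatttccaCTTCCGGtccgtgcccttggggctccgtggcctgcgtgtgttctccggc
Ndufa8: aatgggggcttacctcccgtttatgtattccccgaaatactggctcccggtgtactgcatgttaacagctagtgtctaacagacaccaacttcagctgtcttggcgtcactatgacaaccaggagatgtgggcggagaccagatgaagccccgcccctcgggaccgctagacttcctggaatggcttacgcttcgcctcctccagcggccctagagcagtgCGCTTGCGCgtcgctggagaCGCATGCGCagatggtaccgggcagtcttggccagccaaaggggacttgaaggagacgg

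In the longest-repeat lines at 6 months Atp5g1 rose and Ndufs3 fell, as described below. Ndufs3 is a core subunit of the arm of complex I that passes electrons to ubiquinone. Ndufa8, an accessory subunit, was called higher than in Q20 in Q175 and Q140 at that age. It was not called against own wild-type cage mates in either line, nor in Q140 against all wild types of that age. Ndufs3 held the ETS core CCGGAAG at position 224 of the window and its reverse complement at position 252. Ndufa8 held the NRF1 core GCGCANGCG on the reverse strand at positions 222 and 242, and the Atp5g1 window held none of the letters searched. Searched on both strands over the 70 promoters that the RefSeq table gives for 65 members, the NRF1 core, shortened here from 10 to 9 letters, which can only add matches, was in 20 (28.6%) and in 6.25% of all 32851 promoters, and the ETS core was in 16 (22.9%) against 8.86%. The YY1 core AAGATGGCG was in 7 (10%) against 1.40%, and the ERR core TCAAGGTCA in 2 (2.86%) against 0.423%. At least 1 of the 4 was in 35 member promoters (50%) and in 15.2% of all. No pair of the matches printed here overlaps. These are matches of letters and were not tested.

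The 81 genes moved up and down together from library to library. A score, the mean over the members of log2 CPM relative to each member's mean over all libraries, ran from 0.48 to 1.64 in 7 libraries of 2 months and from -0.10 to 0.41 in the other 49. It ran from -0.22 to 0.01 at 6 months and from -0.09 to 0.37 at 10 months. The 7 libraries are the ones with over 17% of their counts on mitochondrial (mt-) genes. They were Q80 M5 (score 1.64, 24.1% mt- counts), Q20 M2 (0.95, 20.7%), Q92 M4 (0.90, 20.7%), Q20 M3 (0.89, 20.5%), Q92 M3 (0.88, 20.5%), Q111 F2 (0.52, 17.4%) and wild type F1 (0.48, 17.2%). Elsewhere the mt- share was 11.4 to 14.9% at 2 months, 9.43 to 12.3% at 6 months and 11.9 to 16.3% at 10 months.

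**Figure D1:**
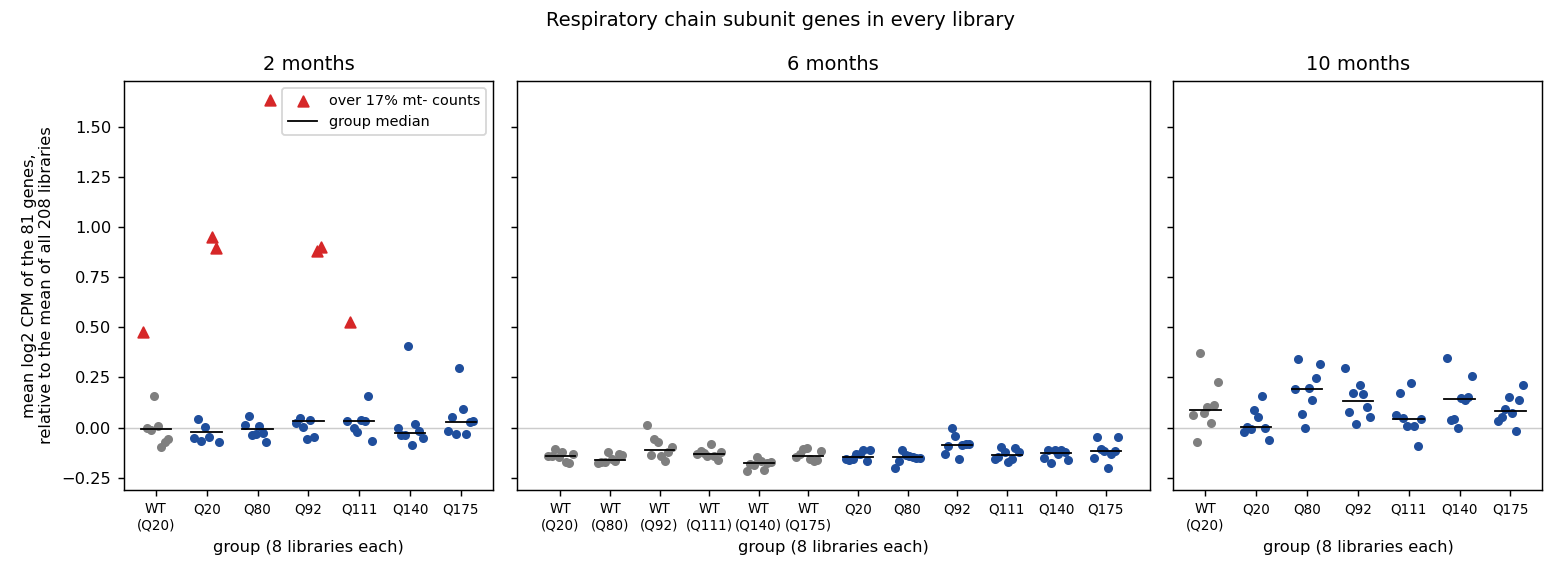
Mean log2 CPM of the 81 nuclear respiratory chain genes in each library, relative to the mean of all libraries, by group and age; each point is a library, black bars are group medians and red triangles mark the 7 libraries of 2 months with over 17% mt- counts. The triangles sit between 0.48 and 1.64, above the range of -0.10 to 0.41 of the other libraries of that age.

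In each of these 7 libraries all 81 members lay above their median in the other 49. The same held for 81 members in Q140 F4 (14.8% mt- counts) and Q175 F4 (14.1%), which are among the 49. The mean difference between the 7 and the 49 ran from a log2 of 0.10 for Ndufs1, the large iron-sulfur subunit of complex I, to 1.24 for Cox8a, with a median of 0.96 where the median of all genes was 0.00. By complex the medians were 0.97 in I, 0.63 in II, 0.98 in III, 0.996 in IV and 0.92 in V. Cox8a reached 862 CPM in Q80 M5, against a median of 164 CPM in its group. Across genes the difference was larger where transcripts are shorter: Pearson's r with log length was -0.65 and Spearman's rho -0.67 over 80 members, and -0.57 and -0.71 over 15446 genes. These points share the same libraries and are given as a description. The 753 genes of any kind with a longest transcript under 1000 bases had a median difference of 0.86, and 92.0% of them were above 0. The part of transcript length and of the mt- share in the difference of the members was not tested.

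**Figure D2:**
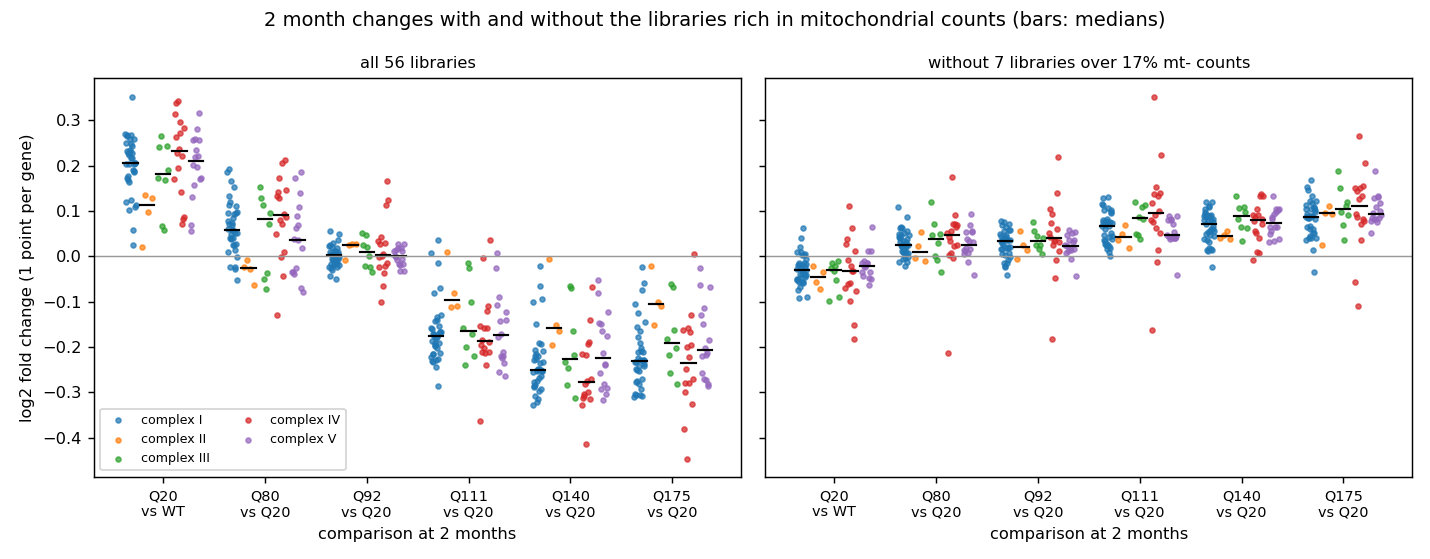
Log2 change at 2 months of each member (points, coloured by complex, with the median of a complex as a bar) for Q20 against wild type and each line against Q20, with all 56 libraries on the left and without the 7 libraries with over 17% mt- counts on the right. In Q175 the medians of the 5 complexes lie below 0 with all libraries and between 0.09 and 0.11 without the 7.

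No nuclear respiratory chain gene passed the test in any line at 2 months, and the sign of their common shift depended on the 7 libraries. With all libraries the median change from Q20 was -0.22 in Q175, -0.24 in Q140 and -0.17 in Q111, with a median SE of 0.20 for a single gene, and 80 of the 81 genes were below 0 in Q175. Q20 holds 2 of the 7 libraries and Q175 and Q140 hold none. Without the 7 the medians were 0.09 in Q175, 0.07 in Q140 and 0.07 in Q111, and 78 of the 81 genes were above 0 in Q175. Q140 F4 (score 0.41) and Q175 F4 (0.30), which scored highest among the other 49 libraries, stayed in. Their part in these medians and in the p-values without the 7 was not tested. In Q175 the complex medians went from -0.23 to 0.09 in complex I, from -0.11 to 0.09 in II, from -0.19 to 0.10 in III, from -0.23 to 0.11 in IV and from -0.21 to 0.09 in V. Of all 17006 genes, 0.218% were called in Q175, 0.0176% in Q111, 0.0118% in Q80 and 0% in Q140 and Q92. The counts of members called were 0 with and without the 7 libraries, by edgeR, and 0 by DESeq2 in all libraries. At an unadjusted p under 0.05 edgeR gave 0 members in each line with all libraries and 27 in Q175 without the 7. The lowest adjusted p of the members there was 0.134 by edgeR, and 0.493% of all genes were called. That share is of adjusted calls, and the count of all genes at an unadjusted p under 0.05 is not given here for that fit. Q80 and Q92, which hold 1 and 2 of the 7 libraries, had medians of 0.06 and 0.00 with all libraries and 0.03 in both without the 7. The median change of Q20 from its wild-type cage mates was 0.21 with all libraries and -0.03 without the 7 (0 members called by edgeR and by DESeq2, 0% of all genes, 0 members at an unadjusted p under 0.05).

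A linear trend over the 6 knock-in lines called 0 of 81 members at 2 months (0.354% of all genes; 2 members at an unadjusted p under 0.05, and 0 called by DESeq2). Without the 7 libraries it called 1 (1.5% of all genes), Atp5g1, which rose by a log2 of 0.014 ± 0.0033 (SE) for each 10 CAG repeats (edgeR adjusted p = 0.018). Mice of a line share their repeat length, so the SE of a trend does not measure the spread between lines.

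At 6 months the Q175 striatum showed small changes in both directions in single subunits. Of the 81 members, 19 were higher and 8 lower than in Q20, where 36.2% of all genes were called (18% higher and 18.2% lower). The median change of the members was 0.03 and that of all genes 0.01. By complex, 7 of 37 members of complex I were higher and 5 lower, 1 of 4 of complex II was higher, 3 of 8 of complex III were higher, 3 of 16 of complex IV were higher and 2 lower, and 5 of 16 of complex V were higher and 1 lower. On the authors' FPKM, tested with limma on log2(FPKM + 1), the split was 55 higher and 3 lower, with 51.7% of all genes called and a median of 0.07 over all genes and 0.09 over the members. The balance of higher and lower members therefore depended on the scale.

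**Figure D3:**
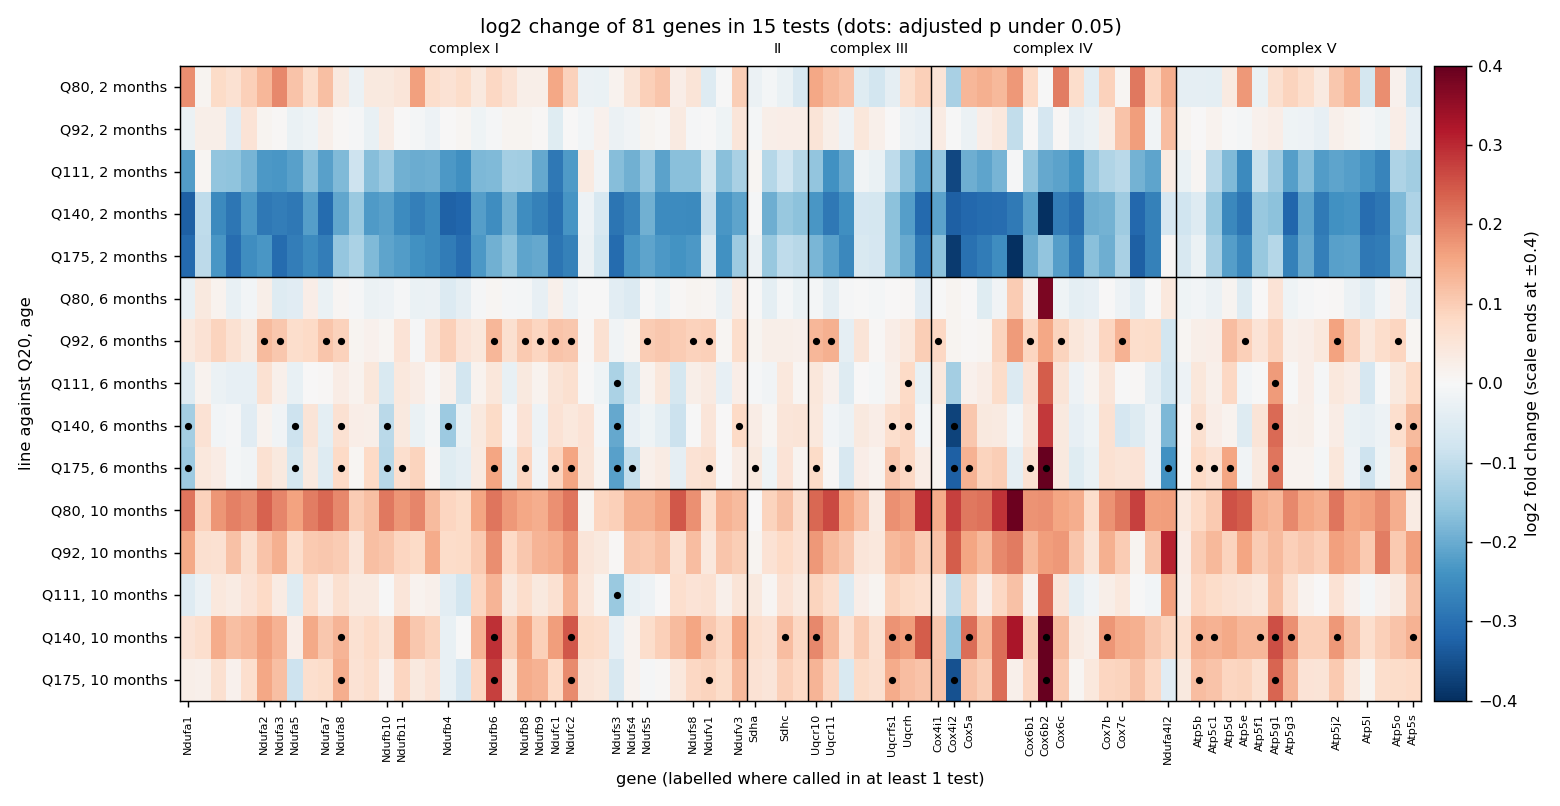
Log2 change from Q20 of each of the 81 genes (columns, grouped by complex) in each line and age (rows), as colour from blue (lower) to red (higher); dots mark adjusted p under 0.05 and genes with a dot are labelled. Called genes are found at 6 and 10 months and in both directions at 6 months.

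Ndufs3 gave the smallest adjusted p of the members. Its level in Q20 at 6 months was 85.6 CPM in the lowest library, 89.6 in the median and 93.8 in the highest, and in Q175 it was 72.8, 77.9 and 81.5 CPM. No Q175 library reached the lowest Q20 library, and the change was -0.22 ± 0.023 (SE; edgeR adjusted p = 7.7e-13). The Q140 libraries, at 74.4, 78.6 and 81.9 CPM, and the Q111 libraries, at 78.2, 81.8 and 85.1 CPM, also lay wholly below Q20. Their changes were -0.20 ± 0.023 (adjusted p = 1.6e-11) and -0.13 ± 0.023 (2.5e-05). The wild types housed with Q175 lay at 85.6, 87.5 and 92.3 CPM, above every Q175 library, and against own wild-type cage mates the changes were -0.19 in Q175, -0.15 in Q140 and -0.11 in Q111, all called. Of the 81 members, 1 in Q111, 2 in Q140 and 4 in Q175 had no overlap with Q20 at 6 months. Among the 14533 genes that reach the same minimum level the shares without overlap were 3.55%, 7.02% and 12.5%.

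Atp5g1, a gene for the c subunit of the ATP synthase rotor, rose most among the abundant members. In Q20 it lay at 80.3, 83.7 and 90.2 CPM (lowest, median and highest of 8), in Q111 at 86.5, 94.2 and 102 CPM, in Q140 at 93.5, 98.6 and 106 CPM and in Q175 at 93.4, 98.1 and 105 CPM. The Q140 and Q175 groups did not overlap Q20, and the Q111 group did. Changes were 0.17 ± 0.042 in Q111 (edgeR adjusted p = 0.0021), 0.23 ± 0.042 in Q140 (8.0e-06) and 0.21 ± 0.042 in Q175 (1.8e-05). Against own wild-type cage mates they were 0.13, 0.27 and 0.20, and each was called. In Q80 and Q92 the levels were 77.9, 86.0 and 108 CPM and 80.9, 90.4 and 97.5 CPM, and Atp5g1 was not called there. The other c subunit gene, Atp5g3, was not called in Q175.

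**Figure D4:**
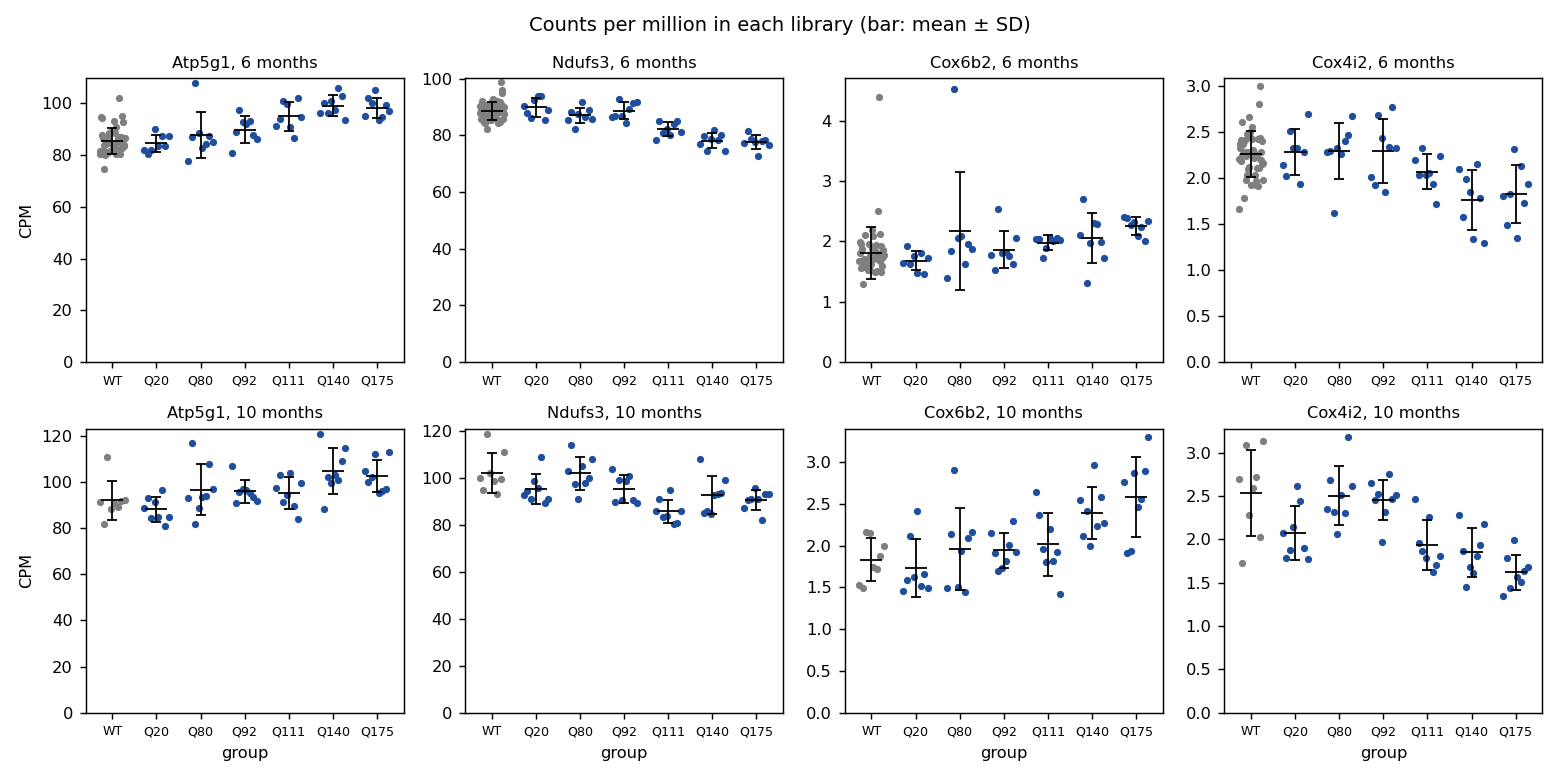
CPM of Atp5g1, Ndufs3, Cox6b2 and Cox4i2 (columns) in each library at 6 and 10 months (rows), by line and for all wild types of the age; bars are the mean and SD of a group. At 6 months the Ndufs3 points of Q175 (72.8 to 81.5 CPM) lie below those of Q20 (85.6 to 93.8 CPM) and the Atp5g1 points (93.4 to 105 CPM) above them (80.3 to 90.2 CPM).

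In complex I, the accessory membrane-arm subunits Ndufc2 and Ndufb6 were the largest rises in Q175 at 6 months. Ndufc2 lay at 43.3, 44.0 and 45.5 CPM in Q20 and at 46.1, 48.5 and 56.5 CPM in Q175, with no overlap, a change of 0.16 ± 0.029 (edgeR adjusted p = 8.2e-06). Ndufb6 changed by 0.16 ± 0.035 (0.00015), with 1 pair of neighbouring libraries overlapping by a small margin (30.9 CPM at the top of Q20 and at the bottom of Q175). After Ndufs3, the largest fall was that of Ndufa1, a membrane-arm subunit needed for assembly, from 40.1, 41.2 and 43.5 CPM to 34.8, 37.2 and 41.5 CPM (-0.15 ± 0.035, adjusted p = 0.00051). Ndufb10 (-0.11), Ndufs4 (-0.09) and Ndufa5 (-0.07) were the other called falls, and Ndufa8 (0.08), Ndufb8 (0.09), Ndufc1 (0.09), Ndufb11 (0.07) and Ndufv1 (0.06), the NADH-binding subunit, the other called rises. Subunits of this enzyme changed in both directions in the same libraries.

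Complex II had 1 subunit called in Q175 against Q20. Sdha rose by 0.04 ± 0.016 in Q175 (edgeR adjusted p = 0.040), from 356, 367 and 379 CPM to 368, 379 and 389 CPM with much overlap. The iron-sulfur subunit Sdhb and the membrane anchors Sdhc and Sdhd had changes of -0.02, 0.05 and 0.01 and were not called. The call of Sdha was lost without any 1 of 7 libraries. Against own wild-type cage mates Sdha (0.04) and Sdhc (0.08) rose in Q175 (31.8% of all genes called). In Q140 all 4 subunits rose against own cage mates (24.2%), by 0.05 for Sdha and Sdhb, 0.07 for Sdhc and 0.09 for Sdhd. Against Q20, 0 of the 4 were called in Q140 at 6 months. The cage mates of Q140 had the lowest median score of the wild-type groups of that age (-0.18). In complex III the Rieske iron-sulfur protein Uqcrfs1 rose in Q175 against Q20 by 0.11 ± 0.025 (edgeR adjusted p = 0.00032), from 65.9, 68.5 and 72.5 CPM to 67.3, 74.2 and 81.5 CPM. Uqcrh and Uqcr10 rose by 0.08 each. Uqcrb was at -0.06 ± 0.031 and was not called.

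In complex IV the largest changes were in the scarce forms. Cox6b2 lay at 1.46, 1.68 and 1.93 CPM in Q20 and at 2.00, 2.30 and 2.41 CPM in Q175, with no overlap (0.42 ± 0.14, edgeR adjusted p = 0.011). Cox4i2 lay at 1.94, 2.31 and 2.70 CPM in Q20 and at 1.35, 1.82 and 2.33 CPM in Q175, with overlap (-0.33 ± 0.096, adjusted p = 0.0044), and it was also lower in Q140 (-0.37). Ndufa4l2, like Cox4i2 a gene known from pericytes, fell by 0.24 on the log2 scale (SE 0.086, adjusted p = 0.020). Of 8 endothelial and mural cell markers, 7 fell in Q175 with a list median of -0.20. Their summed level was 418 to 468 CPM in Q20 and 371 to 413 CPM in Q175, and their part in the falls of Cox4i2 and Ndufa4l2 was not tested. Of the common forms, Cox5a rose by 0.14 and Cox6b1 by 0.06.

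In complex V, after Atp5g1, the largest rises in Q175 were those of Atp5d (0.16 ± 0.064, edgeR adjusted p = 0.045), the delta subunit of the rotor, and Atp5s (0.16 ± 0.044, adjusted p = 0.0030), a coupling factor. Atp5b rose by 0.08, from 1026, 1067 and 1107 CPM to 1050, 1139 and 1176 CPM, and Atp5c1, the gamma subunit, by 0.06. Atp5l, a subunit of the membrane part, fell by 0.08 (SE 0.026). Several of the smaller calls in Q175 were lost when 1 library was left out. Ndufb8 was lost without Q175 M4 (0.06), Ndufa4l2 without Q20 F2 or M4 (-0.21 in each case), Atp5c1 without Q175 F2, Q20 M3 or M4 (0.04 to 0.05) and Cox6b1 without Q175 F2, Q20 F1 or M1 (0.05). Calls of Ndufv1, Ndufa5, Ndufb11, Atp5d, Uqcr10 and Ndufc1 were each lost without any 1 of 5 to 9 libraries. The other 16 called members, Ndufs3, Atp5g1, Ndufc2, Ndufb6, Cox6b2 and Cox4i2 among them, kept their call whichever of the 16 libraries was left out.

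The Q140 striatum at 6 months had 8 members higher and 6 lower than Q20 (27.9% of all genes called, 13.8% higher and 14.1% lower), with a median of 0.01. Falls were Cox4i2 (-0.37), Ndufs3, Ndufb4 (-0.15), Ndufa1 (-0.14), Ndufb10 (-0.11) and Ndufa5 (-0.08), and rises were led by Atp5g1 and Atp5s (0.13). Against its own wild-type cage mates, Q140 had 29 members higher and 2 lower (24.2% of all genes called), with a median of 0.05. Those wild types had the lowest median score of the wild-type groups of 6 months, -0.18, where the other groups of wild types lay between -0.16 and -0.11. Q175 had 16 higher and 6 lower against its own cage mates (31.8%), with a median of 0.02. In Q111, 2 members were higher than in Q20 and 1 lower (12.8% of all genes): Atp5g1, Uqcrh (0.08) and Ndufs3. Against own cage mates Q111 had 1 higher and 2 lower (8.94%), the falls being Ndufs3 and Cox6a2 (-0.35).

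In Q92 at 6 months 21 members were higher than in Q20 and none lower, where 5.99% of all genes were called (3% higher and 2.99% lower), and the median was 0.06. They were 12 of complex I, 2 of complex III, 4 of complex IV and 3 of complex V. The largest was Atp5j2, a membrane subunit of the ATP synthase, at 67.4, 71.7 and 74.4 CPM in Q20 and 69.6, 81.2 and 84.9 CPM in Q92 (0.16 ± 0.026, edgeR adjusted p = 6.4e-05), with overlap of the lowest libraries. Ndufb8 was the 1 member without overlap, at 78.7 to 85.3 CPM in Q20 and 85.5 to 90.9 CPM in Q92, where 0.372% of the 14533 genes that reach the same minimum level did not overlap. Other genes moved in the same comparison: 6 of 8 markers of cortical excitatory neurons rose (list median 1.62), 11 of 12 medium spiny neuron markers fell (-0.29) and 5 of the 13 subunits encoded by mitochondrial DNA fell (-0.12). The summed cortical markers lay at 98.4 to 661 CPM in Q92 and 70.7 to 227 CPM in Q20, and the part of other cells in the rises was not tested. Without 3 libraries of that age that had stood apart in an earlier look at these data (Q92 F2, Q80 F3 and Q20 M4), 16 members were called higher in Q92 (3.23% of all genes). The difference was not found against the wild types from the same cages: there 0 members were called by edgeR and by DESeq2 (0.051% of all genes; 1 at an unadjusted p under 0.05), with a median of 0.02, and none of those cortical, medium spiny neuron or mitochondrial genes was called. The median score of those wild types was -0.11, that of Q92 was -0.08 and that of Q20 was -0.14. Against all 48 wild types of that age 35 members were called higher in Q92 (6.58% of all genes), and with only Q92 and Q20 in the fit, 2 were (0.604%).

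Q80 had no member called against Q20 at 6 months by edgeR or DESeq2 (0.289% of all genes; 2 members at an unadjusted p under 0.05) or against its own cage mates (0.051%; 0 and 0 by DESeq2). Nor had Q20 against its own cage mates (0.0227%; 0 at an unadjusted p under 0.05 and 0 by DESeq2), with a median of -0.00. The trend over the 6 lines called 17 members higher and 8 lower with repeat length (39.9% of all genes). The smallest p belonged to Ndufs3 (-0.016 ± 0.0018 for each 10 repeats, edgeR adjusted p = 1.7e-10) and Atp5g1 (0.016 ± 0.0025, adjusted p = 7.8e-07). Without Q175 the trend called 10 members (24.9% of all genes).

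At 10 months called members in Q140 and Q175 were nearly all higher than in Q20. In Q140, 18 were higher and 0 lower (22.5% of all genes called, 10.9% higher and 11.6% lower), with a median of 0.12 and a median of 0.00 over all genes. In Q175, 8 were higher and 1 lower (24.5%, 12.4% higher and 12.1% lower), with a median of 0.07. The complex medians in Q140 were 0.11 in I, 0.07 in II, 0.15 in III, 0.13 in IV and 0.13 in V, and 7 of the 18 were of complex V. In Q175 the complex medians were 0.07 in I, 0.07 in II, 0.10 in III, 0.09 in IV and 0.08 in V. Choroid plexus markers moved with Q140 at this age: 5 of 7 rose, their summed level was 32.3 to 291.7 CPM in Q140 and 24.8 to 150.2 CPM in Q20, and their part in the rises was not tested. On log2(FPKM + 1), 55 members were higher and 0 lower in Q140 (33% of all genes called). In Q175 they were 42 and 1 (37.7%), where the median of all genes was 0.06.

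The largest rise in both lines was that of Cox6b2, at 1.46, 1.602 and 2.41 CPM in Q20, 1.99, 2.35 and 2.97 CPM in Q140 and 1.91, 2.66 and 3.30 CPM in Q175. The groups overlapped, and the changes were 0.47 ± 0.13 in Q140 (edgeR adjusted p = 0.0050) and 0.59 ± 0.13 in Q175 (0.00035). Atp5g1 lay at 80.98, 86.9 and 96.6 CPM in Q20, 88.4, 102 and 121 CPM in Q140 and 95.1, 101 and 113 CPM in Q175, with changes of 0.26 ± 0.057 (0.00056) and 0.23 ± 0.057 (0.0016). Ndufb6 changed by 0.29 in Q140 and 0.27 in Q175, and Ndufc2 by 0.25 and 0.19. In Q175 Ndufa8 (0.15), Uqcrfs1 (0.15), Atp5b (0.12) and Ndufv1 (0.09) were the other rises and Cox4i2 (-0.35 ± 0.11, adjusted p = 0.015) the fall. The call of Uqcrfs1 was lost without Q175 M4 (0.12), and those of Ndufa8 and Ndufv1 without any 1 of 5 and 13 libraries. Sdhc rose by 0.12 in Q140 (adjusted p = 0.038), from 70.4, 76.6 and 85.7 CPM to 74.4, 83.2 and 93.3 CPM.

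The reference mattered at 10 months. All 81 members were lower in Q20 than in its wild-type cage mates, with a median change of -0.08, and none was called by edgeR or DESeq2 (0.0116% of all genes called; 11 members at an unadjusted p under 0.05). With wild types in place of Q20, 2 members were higher and 2 lower in Q140 (20.9% of all genes called), with a median of 0.04, and 2 were higher and 4 lower in Q175 (24.6%), with a median of -0.01. Atp5g1 and Cox6b2 were called higher against both references in both lines. Against wild types Atp5g1 changed by 0.19 in Q140 (edgeR adjusted p = 0.010) and 0.17 in Q175 (0.023), and Cox6b2 by 0.39 (0.021) and 0.51 (0.0017). Cox4i2 was lower in Q175 against both references, at -0.64 against wild types, which lay at 1.73, 2.65 and 3.13 CPM where Q175 lay at 1.35, 1.603 and 1.99 CPM.

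Ndufs3 at 10 months was lower than in Q20 in Q111 (-0.15 ± 0.048, edgeR adjusted p = 0.033), the 1 called member of that line (12.5% of all genes called). In Q140 and Q175 its changes from Q20 were -0.03 (adjusted p = 0.67) and -0.06 (0.37). Against wild types (16.6% of all genes called in Q111) it was lower in all 3 lines, with changes of -0.25 in Q111, -0.14 in Q140 and -0.17 in Q175 (adjusted p = 9.8e-05, 0.037 and 0.0076). Its levels were 93.3, 99.8 and 119 CPM in wild types, 89.6, 93.7 and 109 CPM in Q20 and 82.0, 91.0 and 95.7 CPM in Q175, and the Q175 group overlapped both.

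Q80 and Q92 at 10 months had no called member by edgeR, although all 81 changes from Q20 were above 0 in both. The median was 0.16 in Q80, with 67 members at an unadjusted p under 0.05, as were 3503 of all 17170 genes. The lowest adjusted p of the members was 0.071 by edgeR, and DESeq2 called 17 (2.06% of all genes, against 0.122% by edgeR). In Q92 the median was 0.11, with 31 members and 2248 of all 17170 genes at an unadjusted p under 0.05. DESeq2 called 0 members, and edgeR called 1.12% of all genes. Against wild types in place of Q20 the medians were 0.08 in Q80 and 0.03 in Q92, with 72 and 59 of the 81 above 0. The trend over the 6 lines called 9 higher and 1 lower (32.8% of all genes): Cox6b2 rose by 0.039 ± 0.0076 for each 10 repeats (adjusted p = 5.3e-05) and Cox4i2 fell. Without Q20 it called 3 higher and 8 lower (27.9%).

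For the difference of the Q175 effect between 6 and 10 months edgeR and DESeq2 called 0 members (0.0112% of all genes), and 0 had an unadjusted p under 0.05. The median SE was 0.16, in a fit over all ages whose spread includes the 7 libraries of 2 months, and differences of the size found, from -0.09 to 0.18, were not detectable in it. With only Q175 and Q20 of the 2 ages in the fit the median SE was 0.06, 5 members had an unadjusted p under 0.05 and 0 were called (0.0175%). Between 2 and 6 months 0 members were called by edgeR and by DESeq2 (7.88% of all genes). By edgeR 13 members and 4083 of all 17863 genes had an unadjusted p under 0.05, and the lowest adjusted p of the members was 0.091. Without the 7 libraries, 2 were called (9.86% of all genes), Ndufa1 (-0.24 ± 0.075, adjusted p = 0.027) and Ndufs3 (-0.17 ± 0.058, adjusted p = 0.040), whose Q175 effects were lower at 6 months.

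After group and sex means were taken off, the mean Pearson correlation between pairs of members over the libraries was 0.94 at 2 months, 0.69 at 2 months without the 7 libraries, 0.27 at 6 months and 0.71 at 10 months, against 0.00 over all genes. These pairs share libraries, depth and short transcripts, and the values are descriptions over 56, 49, 96 and 56 libraries. The mean over all genes mixes transcripts of all lengths, and other short genes were not measured in this way. Pairs from different complexes had nearly the same mean as pairs within a complex, 0.26 and 0.20 to 0.31 at 6 months. At 6 months the mean correlation with the other members was 0.39 for Atp5g3, and lowest for Atp5s (0.01) and Ndufa4l2 (0.05).

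The 13 subunits encoded by mitochondrial DNA had a median below 0 in Q175 against Q20 at 6 and 10 months, where the nuclear median was above 0. At 10 months the nuclear side of this depended on the reference. Against wild types the complex medians in Q175 ran from -0.01 in complex I to 0.03 in complex III. At 6 months 10 of the 13 fell and none rose, where 18.2% of all genes were called lower, with a median of -0.13. Against own wild-type cage mates 10 of the 13 fell as well, with a median of -0.12. At 2 months both medians were below 0 with all libraries (-0.18 for the mitochondrial subunits), and 0 of the 13 were called. Complex I subunits fell most, mt-Nd2 (-0.22 ± 0.049, edgeR adjusted p = 0.00012) and mt-Nd1 (-0.20 ± 0.043), followed by mt-Nd3 (-0.17), mt-Nd4l (-0.15), mt-Nd4 (-0.14), mt-Atp6 (-0.13), mt-Cytb (-0.13), mt-Atp8 (-0.12), mt-Co3 (-0.11) and mt-Co2 (-0.09). mt-Co1 (-0.03), mt-Nd5 (-0.11) and mt-Nd6 (-0.08) were not called. The mt-Nd2 level was 5348, 5789 and 6143 CPM in Q20 and 4209, 5026 and 5498 CPM in Q175, with overlap. At 10 months 5 fell (mt-Nd2 -0.27, mt-Nd3 -0.24, mt-Nd4l -0.23, mt-Atp8 -0.22 and mt-Nd1 -0.17) and none rose, where 12.1% of all genes were called lower. After group and sex means were taken off, the 13 had a mean pairwise correlation of 0.81 at 6 months and 0.82 at 10 months. Their calls are therefore not separate results. In Q140 1 of the 13 fell at 6 months and 1 at 10 months. Falls were not limited to the longest repeats: as given above, 5 of the 13 fell in Q92 at 6 months. The median mt- share of counts at that age was 11.02% in Q20 and 10.89% in Q175. It was lower in Q92 (10.45%) and Q80 (10.54%), and higher in Q140 (11.17%) and Q111 (11.59%). All libraries were made from polyadenylated RNA.

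**Figure D5:**
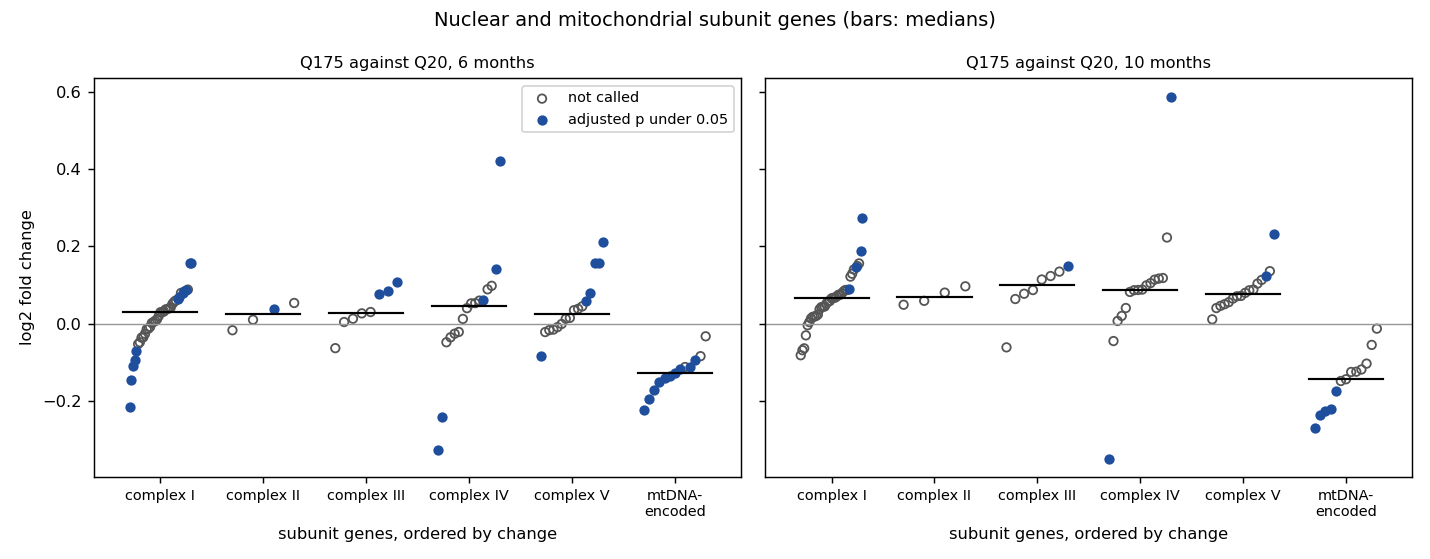
Log2 change from Q20 in Q175 of each nuclear member by complex and of the 13 mitochondrial DNA-encoded subunits, at 6 and 10 months; filled points have an adjusted p under 0.05 and bars are medians. At 6 months the complex medians lie between 0.02 and 0.05 and the mitochondrial one at -0.13.

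Factors that build the complexes changed in single genes, in counts to be read against the 18% of all genes called higher and 18.2% lower in Q175 at 6 months. At that age 3 of 15 complex I assembly factors rose (Acad9 by 0.12) and Ecsit fell by 0.10, 2 of 6 for complex III rose (Uqcc3 by 0.16) and 3 fell, and 5 of 19 tested for complex IV rose and 1 fell. Lyrm7, a chaperone of the Rieske protein Uqcrfs1, fell by 0.20 at 6 months (SE 0.053, edgeR adjusted p = 0.0013). Its fall at 10 months was 0.29 (SE 0.047, edgeR adjusted p = 4.2e-06). Cox16 (0.18), Sco1 (0.16) and Cox19 (0.15) were the largest rises for complex IV. No factor of complex II (4) or V (3) was called at either age. Cyc1, the heme-carrying cytochrome c1 of complex III whose symbol lies outside the naming rule, rose by 0.15 ± 0.032 at 6 months (adjusted p = 9.4e-05) and 0.16 at 10 months, and cytochrome c itself, Cycs, was at 0.02 and 0.05.

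Of 15 regulators of respiratory genes, 2 fell in Q175 at 6 months and none rose, below the shares of all genes called (18.2% lower and 18% higher): Ppargc1b, a coactivator (-0.45 ± 0.071, edgeR adjusted p = 1.5e-07), and Tfb2m, which starts mitochondrial transcription (-0.13 ± 0.035, adjusted p = 0.0015). Ppargc1a, the best known coactivator of mitochondrial biogenesis, changed by 0.05 (adjusted p = 0.59) at 6 months and by -0.01 at 10 months. In the same comparison, with the same shares over all genes, of 13 citric acid cycle genes 4 rose and none fell (Idh3a by 0.19, Dld by 0.10, Cs by 0.07 and Mdh2 by 0.06), and of 10 for coenzyme Q synthesis 3 rose (Coq3 by 0.21, Coq6 by 0.12 and Pdss1 by 0.11). At 10 months 3 and 2 genes of these lists rose (12.4% of all genes called higher), with Idh3a at 0.20 and Coq3 at 0.19.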

How the data were processed

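The deposited matrices hold, for each gene and library, the authors' expected counts (estimated read counts, of which 32.7% of the values above 0 were not whole numbers) and the authors' FPKM. Per the submitters' processing notes CASAVA 1.8.2 was used; the aligner, genome build and strandedness were not given in the sources used here. Polyadenylated RNA of whole striatum was sequenced, per the labels' protocols. Symbols were available for 37607 of 39179 gene IDs, which hold 99.7% of the counts.

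Expected counts were rounded and each age was fitted with edgeR 4.0.16 (R 4.3.3) after filterByExpr (minimum count 10, minimum total 15), which left 17006, 17642 and 17170 genes at 2, 6 and 10 months. The model had TMM factors, a trended dispersion, robust quasi-likelihood, 1 term a group and sex. P-values were adjusted by Benjamini-Hochberg over all genes, with a threshold of 0.05, and the SE is the size of a change over the square root of F. Differences between ages were fitted over the libraries of all ages. CPM are per total counts scaled by TMM. The labels number the replicates without saying that each is a separate mouse, so p-values measure the spread between libraries. Replicate numbers were not used as pairs.

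The members, the other gene lists, the comparisons and the rule for named genes were chosen with earlier results of these data known. Named are Htt, the 2 largest called rises and falls of each complex in Q175 at each age, the largest in the other tests, the highest and lowest by FPKM, forms of 1 subunit, all of complex II, members called most often and up to 3 genes of a list. Other genes named complete a count or are the highest or lowest of a measure; their choice came after seeing their values. Transcript lengths came from GENCODE M21 (longest protein-coding transcript), promoters and motif counts from RefSeq.

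Alternatives were DESeq2 1.42.0, RLE factors, TMM from nuclear genes, no filter on low counts, limma-trend 3.58.1 on log2(FPKM + 1) and log2(FPKM + 0.1), a replicate block, a fit of the compared groups alone, wild types as the reference, and fits without certain libraries or lines. The edgeR step was tested on simulated data. Figures were drawn with matplotlib 3.10.9.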

Additional observations from a re-analysis of the deposited data

Results flagged for a closer look

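Within groups of 8, single libraries stood far from the rest in 15 of 78 checks, made on the mean level of the 81 members, the mt- share of counts and the members' share of counts in each of 26 groups. Chance alone marks about 1 in 20 groups. Nearly all were at 2 months. The mean member level stood apart in Q80 M5 (1.64), Q111 F2 (0.52), wild type F1 (0.48), Q140 F4 (0.41) and Q175 F4 (0.30), all on the high side. The mt- share did so in Q80 M5 (24.1%), Q111 F2 (17.4%) and wild type F1 (17.2%). The members' share of all counts did so in Q80 M5 (1.95%), Q111 F2 (1.18%), wild type F1 (1.15%), Q140 F4 (1.15%) and Q175 F4 (1.09%). Q140 F4 and Q175 F4 were not among the 7 libraries with over 17% mt- counts, so they stayed in the 2 month values without those 7. The pairs of such libraries in Q20 and in Q92 were not marked, because each has another beside it. At 6 months the mt- share of Q111 M2 was low within its group (10.6%), and the members' share of counts in Q80 F3, 1 of 3 libraries of that age that an earlier look at these data found with the highest counts of cortical, choroid plexus or pituitary genes, was high (0.888%).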

How the results depend on the processing

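Over the results for groups of members, 40 alternatives moved the value and 16 turned its direction, and the others kept direction and side of the threshold (for a count, within 1.5 times). The cause was not tested unless named. On the authors' FPKM, with either pseudocount, more members were called: 58 in Q175 at 6 months (55 higher and 3 lower, median 0.095 with a pseudocount of 1 and 0.097 with 0.1), 43 in Q175 at 10 months, 42 in Q140 at 6 months (median 0.061 and 0.062), 55 in Q140 at 10 months, 12 in Q111 at 6 months, 5 in Q111 at 10 months (4 higher), 42 in Q92 at 6 months, and 55 and 46 in the trends at 6 and 10 months. Against own wild-type cage mates they were 57 in Q175, 48 in Q140 and 8 in Q111 (6 higher). The difference of the Q175 effect between 2 and 6 months then had 1 call, the median of Q80 at 2 months was -0.041 and -0.042, and Ndufa5 in Q140 at 6 months changed by 0.0059 and 0.0058 with the 2 pseudocounts and was not called. FPKM are not scaled by TMM, and the median of all genes moved with them.

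With all wild types of the age as the reference, 6 members were called in Q175 at 10 months (2 higher and 4 lower), 4 in Q140 and 4 in Q111 (0 higher, median -0.039), 22 in Q140 at 6 months and 35 in Q92 at 6 months, and the median of Q111 at 2 months was 0.035. Without the 7 libraries with over 17% mt- counts, the 2 month medians were 0.092 in Q175, 0.072 in Q140 and 0.069 in Q111, the trend had 1 call and the difference between 2 and 6 months had 2. With the fit limited to the 2 groups compared, and so fewer samples behind the spread, 17 were called in Q175, 11 in Q140 (5 higher and 6 lower), 2 in Q92 and, against own cage mates, 1 in Q111, all at 6 months. Without Q92 F2, Q80 F3 and Q20 M4, Q140 at 6 months also had 11 calls (5 and 6). With no filter on low counts Q92 at 6 months had 13 calls and Q111 at 10 months 0. DESeq2 called 17 in Q80 at 10 months. The trend at 10 months without Q20 had 11 calls (3 higher and 8 lower), and that at 6 months without Q175 had 10, both with fewer lines.

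With 1 of the 16 Q175 and Q20 libraries left out, 20 to 30 members were called at 6 months, 6 to 13 at 10 months and 0 at 2 months, and the medians ran from 0.02 to 0.05, from 0.05 to 0.09 and from -0.27 to -0.09. The labels do not say whether replicate numbers pair mice, and the main fits did not use them as pairs. Same-numbered Q175 and Q20 libraries had residual correlations of 0.04 to 0.14 at 6 months, where 3 of 8 correlated best with their own number. At 10 months the correlations were -0.07 to 0.11 (1 of 7) and at 2 months -0.16 to 0.05 (0 of 8). With a replicate block, Q175 had 20 higher and 8 lower at 6 months and 7 and 1 at 10 months, the difference between 2 and 6 months had 5 calls, and the median of Q80 at 2 months was -0.27. RLE factors and TMM factors from nuclear genes changed no count of calls by more than 1.5 times. Of 68 calls of single genes 25 held under every alternative. Of the 1229 fits behind them, 162 lost the call and 2 turned its sign.

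Changes of single members were mostly under 0.2, so their calls rest on the small spread at 6 months (median SE 0.03, against 0.20 at 2 months). Members that share reads with pseudogenes, near-identical copies or antisense genes are uncertain. Age and collection cannot be told apart.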
